A study of Mus musculus with 8 samples.

Results

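Oxidative phosphorylation is carried out by 5 protein complexes of the inner mitochondrial membrane whose subunits come from 2 genomes. The members described here are the protein-coding genes whose GENCODE release M21 symbol begins with Nduf, Sdha, Sdhb, Sdhc, Sdhd, Uqcr, Cox4, Cox5, Cox6, Cox7, Cox8 or Atp5, or with mt-Nd, mt-Co, mt-Cytb or mt-Atp. The symbol rule found 111 genes in the annotation, and 110 of them were among the 53465 gene identifiers in the files. Of these, 97 are nuclear and 13 lie on the mitochondrial genome. The nuclear members comprise 36 genes of complex I, 4 of complex II, 8 of complex III, 20 of complex IV, 16 of complex V, 12 assembly factors and Atp5s, a coupling factor outside the fixed composition of complex V. Nuclear and mitochondrial (mt-) members are described apart.

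Complexes I and II feed electrons from NADH and succinate into ubiquinone, complex III passes them to cytochrome c, and complex IV reduces oxygen. Complexes I, III and IV pump protons, and complex V, the ATP synthase, makes ATP as the protons flow back. All subunits of complex II are nuclear, whereas the other 4 complexes hold core subunits that are made inside the mitochondrion from mt- genes. Regulatory T (Treg) cells, which restrain other immune cells, are known to depend on mitochondrial respiration.

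The libraries came from mouse Treg cells in which Brg1 can be switched off and on again. Brg1, officially Smarca4, encodes the ATPase BRG1 of a chromatin remodelling complex. All mice were labelled C57BL/6, though the ΔR allele was made on a mixed background and then backcrossed, and all carried R26CAG-FlpoER, a tamoxifen (TAM)-activated recombinase expressed in all tissues, and they were 3 to 4 weeks old. Cre was driven by Foxp3 (Foxp3 YFP-Cre), so that the floxed allele (BrgF) is removed in Treg cells only, and the second allele (ΔR) is a null that carries GFP until the recombinase restores it. The WT library was from BrgF/+ Foxp3 YFP-Cre/+ mice, which are heterozygous for Brg1 in their YFP+ cells. The mosaic libraries were from BrgF/ΔR mice as cells labelled Foxp3 +/+ (Brg1-sufficient) or Foxp3 YFP-Cre (Brg1-deleted). The rKO1 libraries were labelled Foxp3 YFP-Cre/YFP-Cre, first untreated (BrgF/ΔR) and then on Day 7 after TAM as GFP+ (BrgF/ΔR, still deleted) and GFP- cells (given as BrgF/+, Brg1 reexpressed). These 6 libraries were of total Treg cells, and 2 more held activated Treg (aTreg) cells from rKO1 mice, also 7 days after TAM, labelled Brg1-deleted and Brg1-reexpressed. Each condition had 1 library, made from cells sorted from spleen and lymph nodes, so no difference below has a replicate check, and no test or p-value is given.

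The targeted gene was read first. Smarca4 stood at 87.7 CPM (reads per 1000000 reads on genes, scaled between libraries by TMM, the trimmed mean of M values) in WT. It was at 76.9 CPM in Brg1-sufficient and 47.0 in Brg1-deleted mosaic cells, and at 43.9 in rKO1 cells before treatment, 35.9 in GFP+ and 57.9 in GFP- rKO1 cells. These are sums over the whole gene, whose exons are mostly left in place by the deletion. In aTregs it was 71.2 CPM in the library labelled Brg1-deleted and 59.4 in the one labelled Brg1-reexpressed, which is opposite to the labels, and the column of the former is headed as WT with a genotype of BrgF/F. The 2 libraries are therefore named below by their labels. Foxp3 was at 72.8 CPM in WT and at 105 to 535 CPM in the other total Treg libraries, and all 6 Treg markers reached 5 CPM in both experiments. The Y-linked Eif2s3y had 0 reads in the WT and mosaic libraries and between 737 and 2272 reads in the rKO1 and aTreg libraries, so that sex and rKO1 status cannot be told apart in any comparison across them. Foxp3 is X-linked, and the untreated rKO1 library had 10 reads of Xist, the RNA of the inactive X chromosome, beside 2272 of Eif2s3y, which goes against the 2 Foxp3 alleles of its label. Both treated rKO1 libraries held Xist (934 and 762 reads) and Eif2s3y (1144 and 737) together. The aTreg libraries differed in these genes, with 217 reads of Xist and 1739 of Eif2s3y in the one labelled deleted, and 834 and 908 in the one labelled reexpressed. Each library had between 16357998 and 24130039 reads on genes.

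Levels are given as TMM-scaled FPKM, that is, reads per exon length corrected for library size and composition, and a ratio is the log2 ratio of scaled reads with its exact 95% interval, which covers counting error only. A member entered a comparison with at least 5 CPM in either library. By this measure 89 nuclear and 12 mt- members were expressed in a total Treg library, and 88 and 11 in an aTreg library. The files of the 2 experiments were made with different gene lengths for some members, so that levels are not compared between total Treg and aTreg cells.

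Within the mosaic pair and the rKO1 pair of total Treg cells, the library with BRG1 gave nuclear members a larger share of its reads and mt- members a smaller share. The 97 nuclear members held 2.96% of all reads on genes in WT, 2.77% in sufficient and 2.39% in deleted mosaic cells, and 2.72% in untreated, 2.81% in GFP+ and 3.32% in GFP- rKO1 cells. The 13 mt- members held 1.03%, 0.604%, 1.0%, 1.35%, 1.22% and 0.734% in the same order. The 3 libraries without BRG1 thus had 3 of the 4 highest mt- shares, WT being between them, and GFP- rKO1 cells had the highest nuclear share. The 95% counting interval of that highest share was 3.31% to 3.33%. In aTregs, nuclear and mt- members held 1.58% and 1.27% in the library labelled deleted and 1.86% and 1.70% in the library labelled reexpressed.

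The number of mt- reads per read of a nuclear member does not depend on any scaling of the libraries. It was 0.348 in WT, 0.218 in sufficient and 0.420 in deleted mosaic cells, and 0.494 in untreated, 0.436 in GFP+ and 0.221 in GFP- rKO1 cells. The ratio was therefore 1.93 times as high in Brg1-deleted as in Brg1-sufficient mosaic cells, and 1.97 times as high in GFP+ as in GFP- rKO1 cells. Untreated rKO1 cells had 1.42 times the ratio of WT. In aTregs the order was the other way, with 0.914 in the library labelled reexpressed and 0.806 in that labelled deleted, a factor of 1.13. With only the mt- members that share under 5% of 100-base windows with an annotated copy (see the copies further down), the factors were 1.86, 1.99, 1.29 and 1.18. Libraries alike in Brg1 state differed too. With all mt- members, WT had 1.60 times the ratio of Brg1-sufficient mosaic cells and 1.57 times that of GFP- rKO1 cells. Untreated rKO1 cells had 1.18 times the ratio of deleted mosaic cells and 1.13 times that of GFP+ rKO1 cells. GFP- rKO1 over Brg1-sufficient mosaic cells gave 1.02. The 1.42 of untreated rKO1 over WT was thus within the range of like libraries. In a bulk library, fewer cells of a type and less RNA per cell cannot be told apart.

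**Figure D1:**
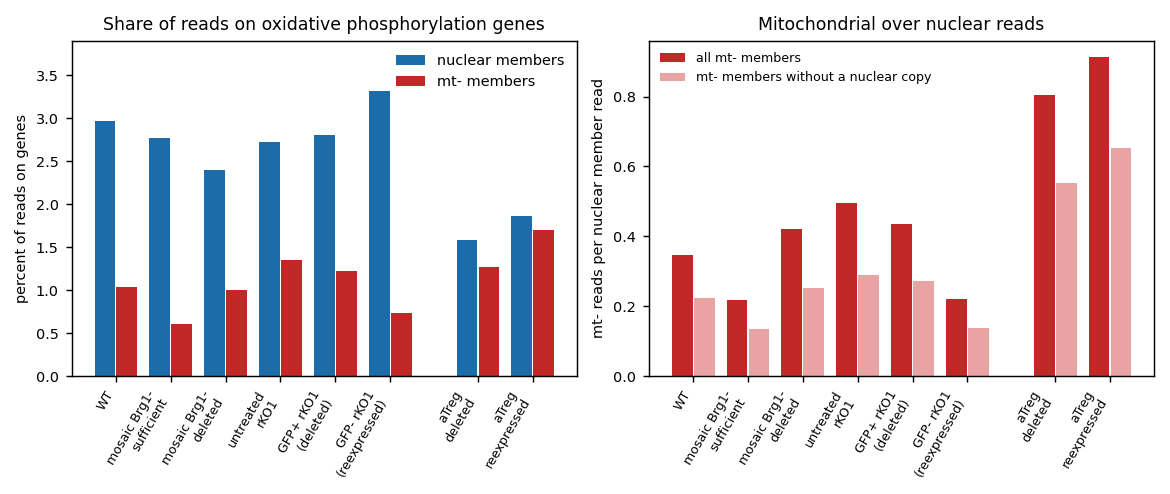
Left, percent of reads on genes that fell on nuclear members (blue) and mt- members (red) in each of the 8 libraries. Right, mt- reads per nuclear member read, with all mt- members (red) and with those sharing under 5% of 100-base windows with an annotated copy (pink). The bars on the right are lowest for mosaic Brg1-sufficient (0.218) and GFP- rKO1 (0.221) cells among the 6 total Treg libraries.

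The mosaic comparison asks how Treg cells with and without BRG1 differ in mosaic mice. Of 88 nuclear members tested, 73 were higher in Brg1-sufficient than in Brg1-deleted cells, where 53.4% of all 10070 genes tested were higher. The median log2 ratio was 0.30 for nuclear members and 0.03 for all genes. Differences were small: no nuclear member reached 2-fold, a size at which 6.09% of all genes differed in either direction, and 17 were at least 1.5-fold higher (11.8% of all genes). The 12 mt- members tested all went the other way, with a median of -0.61.

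By complex, the mosaic medians were 0.37 for complex I, 0.03 for complex II, 0.24 for complex III, 0.30 for complex IV and 0.30 for complex V, and 0.11 for assembly factors. Within complex I, all 29 accessory subunits tested were higher in Brg1-sufficient cells, with a median of 0.41, whereas 4 of the 6 core subunits were, with a median of 0.07. Cox5a, a subunit of cytochrome c oxidase, had the largest difference, with 8076 reads in Brg1-sufficient and 4996 in Brg1-deleted cells, a ratio of 1.85-fold (1.79 to 1.92). Sdhaf1, which assists in the assembly of complex II, was 1.82-fold higher (1.66 to 2.01), at 1094 and 688 reads, but another annotated gene overlaps 69.6% of its exon bases. In complex I, Ndufa12 was highest at 1.60-fold (1.51 to 1.70), and in complex III Uqcrq, a small subunit, at 1.60-fold (1.56 to 1.64). Atp5k, a subunit of the membrane part of ATP synthase, led complex V at 1.58-fold (1.52 to 1.65). At the lower end, Ndufs1, the largest core subunit of complex I, was 1.35-fold lower (1.23 to 1.47) and Ndufaf7, which modifies a complex I core subunit, 1.40-fold lower (1.3 to 1.51). Sdha, the flavoprotein of complex II, was 1.16-fold lower (1.12 to 1.21), and Uqcrc2, a core protein of complex III, 1.12-fold lower (1.07 to 1.17). Cox7a2l and Atp5c1, the gamma subunit of ATP synthase, were the lowest of their complexes at log2 ratios of -0.04 and -0.08.

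The rKO1 comparison after TAM asks what differs between cells that regained BRG1 and those that did not in treated mice. Of 89 nuclear members, 81 were higher in GFP- reexpressed than in GFP+ deleted cells (54.7% of all 10312 genes were higher). The median was 0.55, against 0.06 for all genes. With TMM it was the largest in size of the nuclear medians of the 4 main comparisons, whereas with total reads it was 0.19, below the 0.34 of aTregs. In this pair 37 members were at least 1.5-fold higher, where 17.1% of all genes were, and 4 were at least 2-fold higher, where 7.15% of all genes were. Thus the members were shifted together by a modest amount, and few stood out.

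Those 4 genes were Uqcrc1, Ndufa12, Atp5j2 and Ndufb7. Uqcrc1, a core protein of complex III, had 943 reads in GFP- and 450 in GFP+ cells, a ratio of 2.29-fold (2.05 to 2.57). Ndufa12, an accessory subunit of complex I, had 2427 and 1243 reads, a ratio of 2.14-fold (1.99 to 2.29), and Ndufb7, another, had 19555 and 10494 reads, or 2.04-fold (1.99 to 2.09). Atp5j2, a membrane subunit of ATP synthase, was 2.05-fold higher (2.0 to 2.11). Complex IV had the highest median, 0.70, with 11 of 13 members higher, followed by complex III at 0.67 with 8 of 8. Complexes II and V each had a median of 0.58 and complex I of 0.49, with all 35 of its members higher. Sdhd, a membrane anchor of complex II, was 1.86-fold higher (1.79 to 1.93) and Cox6b1, which bridges the oxidase dimer, 1.71-fold (1.66 to 1.75). Assembly factors stayed near the median of all genes, at 0.09. Sdhaf1 was the lowest of all nuclear members, 1.71-fold lower in GFP- cells (1.53 to 1.90), the opposite of its direction in the mosaic pair. Sdha, Ndufs7 and Atp5g2 had log2 ratios of -0.06, 0.09 and 0.03. Among markers of other cells, the summed level of 4 myeloid markers was lowest in GFP- cells (38.3 CPM) and that of 6 erythroid markers highest in GFP+ cells (628 CPM) of the 6 libraries, and their part in these differences was not tested.

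Untreated rKO1 cells were set against WT cells, which asks what differs when all Treg cells of a mouse lack BRG1. The paper describes rKO1 mice as severely inflamed and their deleted Treg cells as partially activated. Lack of BRG1 and an inflamed host therefore cannot be told apart in this pair. Of 89 nuclear members 79 were lower in untreated rKO1 cells (52.8% of all 10473 genes were lower), with a median of -0.37 against -0.05 for all genes. Complex V had the lowest median at -0.57, with 16 of 16 members lower, then complex II at -0.55 with 4 of 4, complex I at -0.43, and complexes III and IV at -0.35 each. Assembly factors were at -0.05. Again 24 members were at least 1.5-fold lower, against 18.1% of all genes, and 2 at least 2-fold lower, against 7.09%.

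Ndufa12 was the member with the largest deficit in untreated rKO1 cells, at 903 reads against 2542 in WT, or 3.25-fold lower (3.01 to 3.51). Atp5c1 was 2.06-fold lower (1.99 to 2.13), at 5988 and 10689 reads, and Atp5b, the catalytic beta subunit of the same enzyme, was 1.99-fold lower (1.95 to 2.04), at 10986 and 18991 reads. Ndufa4, now assigned to complex IV, was 1.70-fold lower (1.65 to 1.75), as was Sdhb, the iron-sulfur subunit of complex II, by 1.70-fold (1.64 to 1.76). Uqcrc2 was 1.68-fold lower (1.59 to 1.79) and Ndufaf6, a complex I assembly factor, 1.62-fold lower (1.42 to 1.85). The only nuclear member at least 2-fold higher was Cox6b2, described below. Sdhaf1 was 1.32-fold higher (1.20 to 1.45), and Ndufv3, Uqcrc1 and Atp5g2 were near equal in the 2 libraries, at log2 ratios of 0.02, -0.06 and -0.07. This pair also differed in Y-linked reads and in markers of other cells. The summed level of 4 B cell markers was 11.9 CPM in untreated rKO1 cells and 73.6 CPM in WT, the lowest and highest of the 6 libraries. That of 4 myeloid markers was highest in WT (397 CPM), mostly from Lyz2 (376 CPM, against 67.6 CPM in untreated rKO1 cells). Itgam was at 0.30 CPM in WT and 0.10 CPM in untreated rKO1 cells. Csf1r and Cd68 were lower in WT (7.99 and 12.6 CPM) than in untreated rKO1 cells (17.0 and 16.4 CPM). The summed level of 3 platelet markers was highest in untreated rKO1 cells (90.5 CPM). The part of sex, other cells and the inflamed host in the differences of this pair was not tested.

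In aTregs, nuclear and mt- members were both higher in the library labelled reexpressed. Of 88 nuclear members, 74 were higher (45.0% of all 10030 genes were), with a median of 0.39 against -0.06 for all genes. Complexes III and IV had a median of 0.52, complex I of 0.44, complex V of 0.28, complex II of 0.26 and assembly factors of 0.18. Only Ndufs5 and Atp5mpl reached 2-fold (4.41% of all genes did so in this direction). Ndufs5, an accessory subunit of complex I, had 1344 and 592 reads, a ratio of 2.04-fold (1.85 to 2.25), and Atp5mpl, a small membrane subunit of ATP synthase, had 1721 and 769, or 2.01-fold (1.85 to 2.19). Of the 100-base windows of Ndufs5, 19.8% occur in BC002163 too, so that reads may be split between them.

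Cox7b was the highest member of complex IV in the library labelled reexpressed, at 1.87-fold (1.78 to 1.96), and Uqcrb of complex III at 1.86-fold (1.78 to 1.95). Sdhaf4, an assembly factor of complex II, was 1.58-fold higher (1.46 to 1.70). Some large catalytic subunits went against the rest. Atp5b was 1.44-fold lower (1.42 to 1.47), at 22210 against 28787 reads, and Sdha was 1.42-fold lower (1.37 to 1.48), at 4519 against 5787. Ndufa9 was 1.18-fold lower (1.13 to 1.23) and Sdhaf2 1.11-fold lower (1.04 to 1.18). The summed level of 6 erythroid markers was 22872 CPM in this library and 1174 CPM in the library labelled deleted, and all 6 were at least 2-fold apart. Xist and Y-linked reads differed too, as given above. Their part in these differences was not tested.

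**Figure D2:**
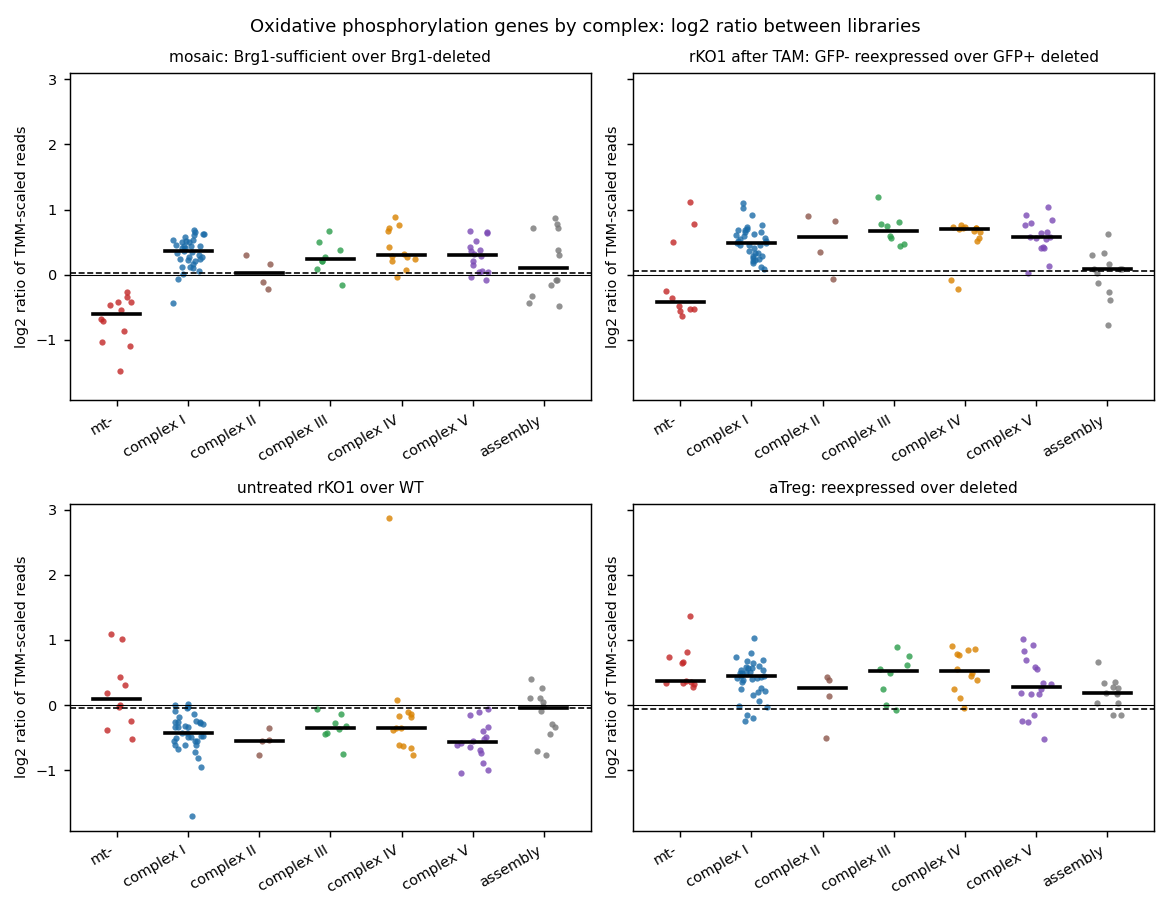
Log2 ratio of TMM-scaled reads (vertical axis) for every member but Atp5s with at least 5 CPM in either library, in the 4 main comparisons, by group of members (horizontal axis). Each point is 1 gene, the thick bar is the median of its group, and the dashed line is the median of all genes tested. The medians of complexes I, III, IV and V lie above the dashed line in both total Treg comparisons of BRG1-containing over deleted cells and in aTregs, and below it for untreated rKO1 over WT, while the mt- median lies below the line in the total Treg pairs (-0.61 and -0.42) and above it in aTregs (0.36).

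The mosaic, rKO1 and aTreg comparisons share no library, and 9220 genes were tested in all 3. Of the 88 nuclear members among these, 62 were higher in the library with or labelled as with BRG1 in all 3 pairs, that is 70.5%, where 21.3% of all genes were. Only Cox7a2l, a factor linked to supercomplexes of complexes III and IV, and Sdha were lower in all 3 (2.27%, against 19.5% of all genes). At 1.5-fold or more in all 3 stood Ndufa13, Uqcrq, Atp5e and Atp5k, or 4.55% of nuclear members against 1.56% of all genes. Ndufa13, an accessory subunit of complex I, was 1.54-fold, 1.52-fold and 1.75-fold higher in the mosaic, rKO1 and aTreg pairs, and an overlapping gene covers 29.98% of its exon bases. Atp5e, the epsilon subunit of ATP synthase, was 1.56-fold, 1.80-fold and 1.61-fold higher. Uqcrq was 1.60-fold, 1.75-fold and 1.53-fold higher, and Atp5k 1.58-fold, 1.89-fold and 1.78-fold. No mt- member was higher, or lower, in all 3.

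These counts rest on the aTreg labels, which Smarca4 goes against. With the aTreg pair turned, an alternative added after the data were seen, 8 of 88 nuclear members were higher in all 3 pairs (9.09%, against 15.7% of all genes), among them Ndufa9, Ndufs7, Uqcrc1 and Atp5d. Of the others, 2 were lower in all 3, Atp5s and Sdhaf3 (2.27%, against 7.98% of all genes), and 0 were 1.5-fold or more higher in all 3 (0.206% of all genes). Of 10 mt- members, 7 were then lower in all 3: mt-Nd1, mt-Nd2, mt-Nd4, mt-Nd5, mt-Nd6, mt-Cytb and mt-Co1.

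The 6 total Treg libraries were also set side by side as 3 with and 3 without BRG1, a grouping of the labels that was chosen after the data were seen. In 47 of 89 nuclear members (52.8%) all 3 libraries with BRG1 lay above all 3 without, as in 9.38% of all 11042 genes expressed. They comprised 10 of 13 members of complex IV, 23 of 35 of complex I, 9 of 16 of complex V, 4 of 8 of complex III, 1 of 4 of complex II (Sdhb) and 0 of 12 assembly factors. Only Atp5s had the reverse order (1.12%, against 7.34% of all genes), and no mt- member separated either way. With total reads in place of TMM the count was 10 members, against 2.44% of all genes. The 6 libraries come from different mice and sexes, healthy for the mosaic and inflamed for the rKO1 mice by the paper's account. Both mosaic libraries and both TAM-treated rKO1 libraries are paired within this grouping.

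Among single members, Ndufa12 had the levels 115, 98.6, 61.5, 35.3, 50.7 and 108 scaled FPKM in WT, in sufficient and deleted mosaic cells, and in untreated, GFP+ and GFP- rKO1 cells. The 3 libraries with BRG1 were thus above the 3 without, with no overlap. Cox5a had 137, 181, 97.6, 86.5, 114 and 190, again without overlap. Uqcrc1, in contrast, had 6.00, 6.83, 6.42, 5.76, 5.92 and 13.6, so that GFP- rKO1 cells stood apart from all the others. Atp5b had 269, 315, 321, 135, 197 and 295, where only untreated and GFP+ rKO1 cells were low. Atp5c1 was 337, 235, 248, 164, 267 and 395 and Ndufb7 142, 140, 92.0, 142, 126 and 257 in the same order, which in neither case separates libraries with and without BRG1.

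The most abundant nuclear members per exon length in WT were Cox6a1 and Ndufa1, at 1314 and 1208 scaled FPKM, followed by Cox8a at 1070 and Uqcr10 at 1044, all of them small subunits. Cox6a1, one of the outer subunits of the oxidase, ran from 863 in untreated rKO1 to 1741 in mosaic Brg1-sufficient cells. Ndufa1, needed for complex I assembly, was lowest in mosaic Brg1-deleted (797) and highest in GFP- rKO1 cells (1404). In aTregs the member with the highest level among these 4 was again Cox6a1, at 482 and 572 in the libraries labelled deleted and reexpressed.

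Isoforms of complex IV that are known from muscle, testis or hypoxic tissue were at or near 0, with 1 exception. Cox7b2 and Cox8c had 0 reads in all 8 libraries, and Cox8b and Ndufa4l2 had at most 1 read. Cox4i2 and Cox6a2 had at most 12 reads, and Cox7a1, the muscle form of Cox7a2, had 10 to 56. Cox6b2, known as the testis form of Cox6b1, had 47 reads in WT, 20 in sufficient and 29 in deleted mosaic cells, and 396 in untreated, 179 in GFP+ and 154 in GFP- rKO1 cells. It was 7.29-fold higher in untreated rKO1 than in WT (5.39 to 10.1), while GFP- and GFP+ rKO1 cells differed by 1.06-fold (interval of the log2 ratio from -0.41 to 0.23). Its levels of 8.27 to 18.6 scaled FPKM in the rKO1 libraries compare with 805 to 1373 for Cox6b1. The libraries in which Cox6b2 was high were those with Y-linked reads in the total Treg experiment. In aTregs it had 21 and 44 reads, below the minimum level. Ndufs3, a core subunit of complex I, had at most 7 reads in any library, so that its level here is that listed in the files and says little of the gene. Per exon length, Uqcrc1 and Ndufs1 were also low in every library (5.03 to 13.6 scaled FPKM), as was Ndufb2 (1.22 to 5.08). In reads they were not near 0, with 413, 907 and 464 reads in WT.

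**Figure D3:**
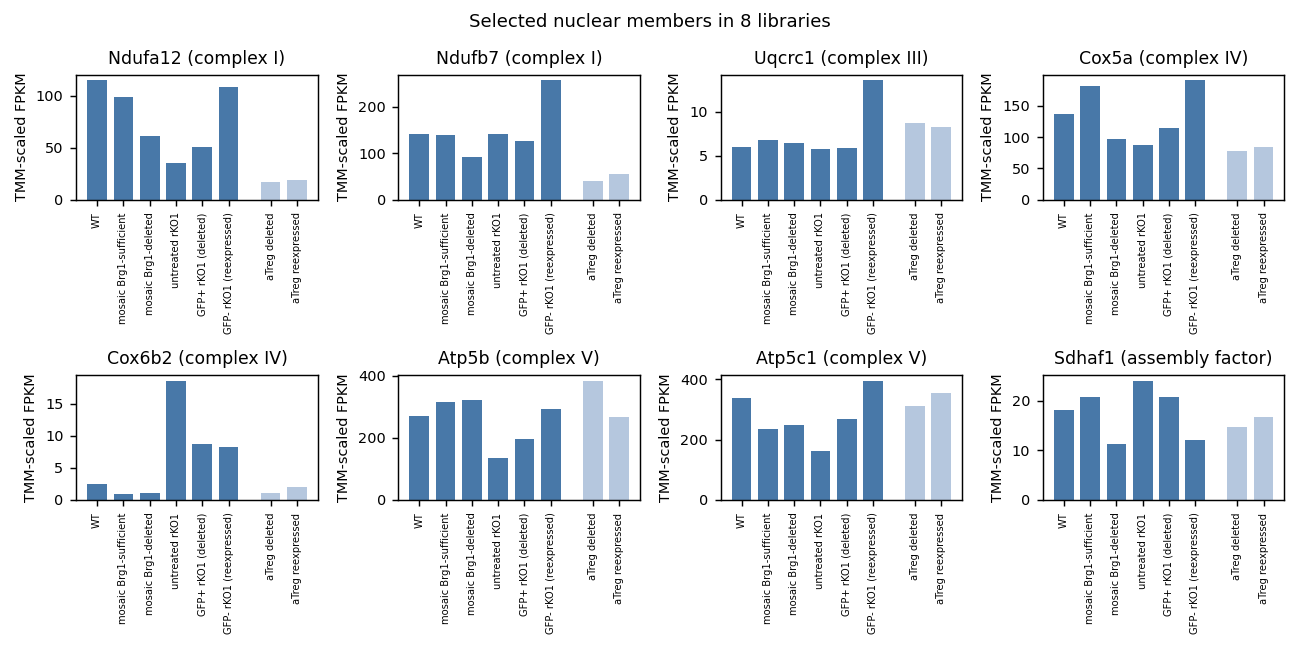
TMM-scaled FPKM (vertical axes, each starting at 0) of 8 nuclear members in the 6 total Treg libraries (dark bars) and, scaled apart and not comparable with them, the 2 aTreg libraries (light bars). Ndufa12 and Cox5a are higher in the 3 libraries with BRG1 than in the 3 without, Uqcrc1 stands out in GFP- rKO1 cells (13.6), and Cox6b2 in the rKO1 libraries (8.27 to 18.6).

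The mitochondrial genome encodes 7 subunits of complex I, cytochrome b of complex III, 3 subunits of complex IV and 2 of complex V. A stretch of this genome has been copied into chromosome 1, and the annotation holds copies of 7 members there. The copies of 6 were fully or almost identical to the gene. Those of mt-Nd4, mt-Nd4l, mt-Co3, mt-Atp6 and mt-Co2 had 0 mismatches over 876, 294, 783, 678 and 681 aligned bases, and that of mt-Nd3 had 1 over 345. The sequences below, from the GENCODE release M21 transcripts, are shown because they decide where a read can be placed. The first 120 bases of mt-Co3, a core subunit of complex IV, cannot be told from those of its copy Gm28437:
mt-Co3: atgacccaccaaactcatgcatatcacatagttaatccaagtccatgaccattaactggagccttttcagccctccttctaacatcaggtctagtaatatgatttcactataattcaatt
Gm28437: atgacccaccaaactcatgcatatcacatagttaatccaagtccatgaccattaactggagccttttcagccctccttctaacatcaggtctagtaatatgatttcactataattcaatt
For mt-Co1, the catalytic subunit of complex IV, the copy Gm29216 covers bases 1054 to 1545 only. All 6 mismatches, in capitals, lie at the start of the aligned part, here from base 1054 to 1173:
mt-Co1: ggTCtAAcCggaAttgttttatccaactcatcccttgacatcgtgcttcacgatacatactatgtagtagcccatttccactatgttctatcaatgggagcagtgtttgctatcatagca
Gm29216: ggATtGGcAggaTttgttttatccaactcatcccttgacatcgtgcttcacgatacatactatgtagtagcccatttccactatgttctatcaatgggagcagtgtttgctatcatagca
Of the 100-base windows of mt-Nd3, mt-Nd4l, mt-Atp6, mt-Co2 and mt-Co3, between 97.6% and 99.9% occurred in a copy. The share was 60.8% for mt-Nd4, 30.8% for mt-Co1, 3.19% for mt-Nd2, and 0 for mt-Nd1, mt-Nd5, mt-Nd6, mt-Cytb and mt-Atp8.

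The 5 members shared almost whole with a copy were listed low. In WT, mt-Cytb stood at 2988, mt-Nd1 at 2130 and mt-Co1 at 1979 scaled FPKM, whereas mt-Atp6, mt-Co3 and mt-Co2 stood at 79.2, 39.9 and 28.1, and mt-Nd4l and mt-Nd3 at 2.43 and 2.07. The mt-Atp8 gene, which has no annotated copy but overlaps mt-Atp6, stood at 11.8. Only annotated transcripts were searched, so a copy of mt-Atp8 between those of mt-Atp6 and mt-Co2 on chromosome 1 was not looked for. In every library the 5 shared genes lay below all mt- members but mt-Atp8, and their values here are uncertain. The copies themselves held reads that varied among libraries, from 946 to 5653 for Gm10925, the copy of mt-Atp6, and from 686 to 4169 for Gm28437.

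**Figure D4:**
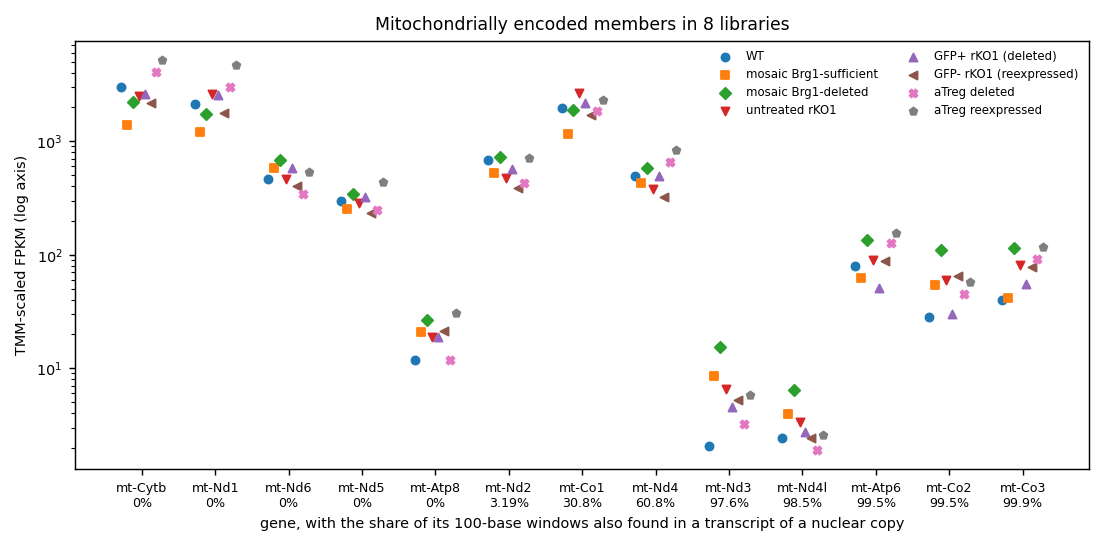
TMM-scaled FPKM (logarithmic axis) of the 13 mt- members in each of the 8 libraries, ordered by the share of 100-base windows of the gene that is also found in a nuclear copy (percent under the names). Genes with shares of 97.6% or more lie far below mt-Cytb, mt-Nd1 and mt-Co1 in all libraries.

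The mt- members with under 5% of windows in an annotated copy are called members without a copy here. Of these, mt-Nd2 shares 3.19% of its windows with Gm13339. The members without a copy went one way in both pairs of total Treg cells with over without BRG1. In the mosaic pair they were 1.20-fold (mt-Nd6) to 1.60-fold (mt-Cytb) lower in Brg1-sufficient cells, apart from mt-Atp8, whose interval included 0 (log2 ratio -0.34, from -0.74 to 0.06). mt-Nd1, a core subunit of complex I, had 24529 reads in Brg1-sufficient and 40742 in Brg1-deleted cells, or 1.45-fold lower (1.43 to 1.47). mt-Cytb had 33877 and 62248 reads, or 1.60-fold lower (1.58 to 1.62). In GFP- against GFP+ rKO1 cells the 5 tested were 1.18-fold (mt-Cytb) to 1.47-fold (mt-Nd2) lower, with mt-Nd1 at 28643 and 45304 reads, 1.45-fold lower (1.42 to 1.47). Their median was -0.44 in the mosaic and -0.53 in the rKO1 pair. In aTregs all 6, with mt-Atp8 (123 and 43 reads) among them, were higher in the library labelled reexpressed, with a median of 0.70. There mt-Nd1 was 1.58-fold higher (1.57 to 1.60), at 89438 and 50778 reads, mt-Nd5 1.76-fold (1.72 to 1.81), mt-Nd2 1.67-fold (1.63 to 1.72) and mt-Nd6, 1.56-fold (1.5 to 1.64). The mt-Nd6 gene lies on the opposite strand to the others, and the library kit does not keep strand, so its count can hold reads of both strands. For untreated rKO1 over WT their median was -0.04, with mt-Nd1 higher (0.31) and mt-Nd2 lower (-0.51).

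The mt- members with a copy spread more widely. In the mosaic pair mt-Co3, mt-Atp6 and mt-Co2 were 2.78-fold (2.55 to 3.04), 2.12-fold (1.97 to 2.30) and 2.05-fold (1.88 to 2.23) lower in Brg1-sufficient cells (2.08% of all genes were at least 2-fold lower). In the rKO1 pair the same 3 genes were higher in GFP- cells, by 1.41-fold (1.29 to 1.55), 1.71-fold (1.55 to 1.89) and 2.17-fold (1.92 to 2.46), against the direction of the members without a copy. With the reads of gene and chromosome 1 copy summed, mt-Co3 turned to a log2 ratio of -0.60 in this pair. In the same sums mt-Co2 and mt-Atp6 stayed at 1.07 and 0.67. Another annotated gene, Gm13341, also shares windows with mt-Co2, as Gm13340 does with mt-Co1, and the reads of these were not added. For untreated rKO1 over WT, mt-Co2 and mt-Co3 were 2.13-fold (1.87 to 2.44) and 2.02-fold (1.82 to 2.24) higher (8.62% of all genes were at least 2-fold higher), and mt-Atp6 went from 0.19 to -1.56 when the reads of its copy were added. mt-Co1 and mt-Nd4, of which only a part is shared, kept to -0.36 and -0.63 in the rKO1 pair. In aTregs, mt-Atp8 was the only mt- member past 2-fold, at 123 and 43 reads (2.57-fold higher, 1.80 to 3.73).

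Scaling moved the size of these differences, and in part their sign. Under scaling to total reads, the median of all genes shifted by -0.13 in the mosaic, -0.35 in the rKO1, 0.30 in the untreated rKO1 and -0.04 in the aTreg comparison. Nuclear members higher in the first library then numbered 63 of 88 (40.4% of all genes), 60 of 89 (29.2%), 33 of 89 (66.5%) and 71 of 88 (41.0%). Counted against the median of all genes, which no scaling changes, 72 of 88, 79 of 89, 13 of 89 and 77 of 88 nuclear members were above it, and 0 of 12, 3 of 10, 7 of 10 and 11 of 11 mt- members.

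Ratios also followed the length of the genes. In the rKO1 pair the median of all genes fell from 0.55 for exon lengths under 500 bases to -0.19 at 8000 bases or more, in aTregs from 0.38 to -0.19, and in the mosaic pair from 0.15 to -0.08, whereas in untreated rKO1 over WT it went up from -0.31 to 0.26. Nuclear members are short, with a median exon length of 1737 bases among those tested in the mosaic pair, against 4261 for all genes. The running median of the 500 genes nearest in length was then subtracted. The nuclear medians became 0.14 in the mosaic pair, 0.30 in the rKO1 pair, -0.19 for untreated rKO1 over WT and 0.22 in aTregs. After the subtraction 60 of 88, 71 of 89, 22 of 89 and 70 of 88 members were above 0, in place of 73, 81, 10 and 74. In the rKO1 pair the median of members was above that of all genes in each length range from 500 bases up, for instance at 0.63 against 0.13 between 2000 and 4000 bases, and the single member under 500 bases was at it. The mt- medians became -0.83, -0.61, 0.34 and 0.20. The part of gene length in these differences was not tested, and length and group cannot be told apart with 1 library each.

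**Figure D5:**
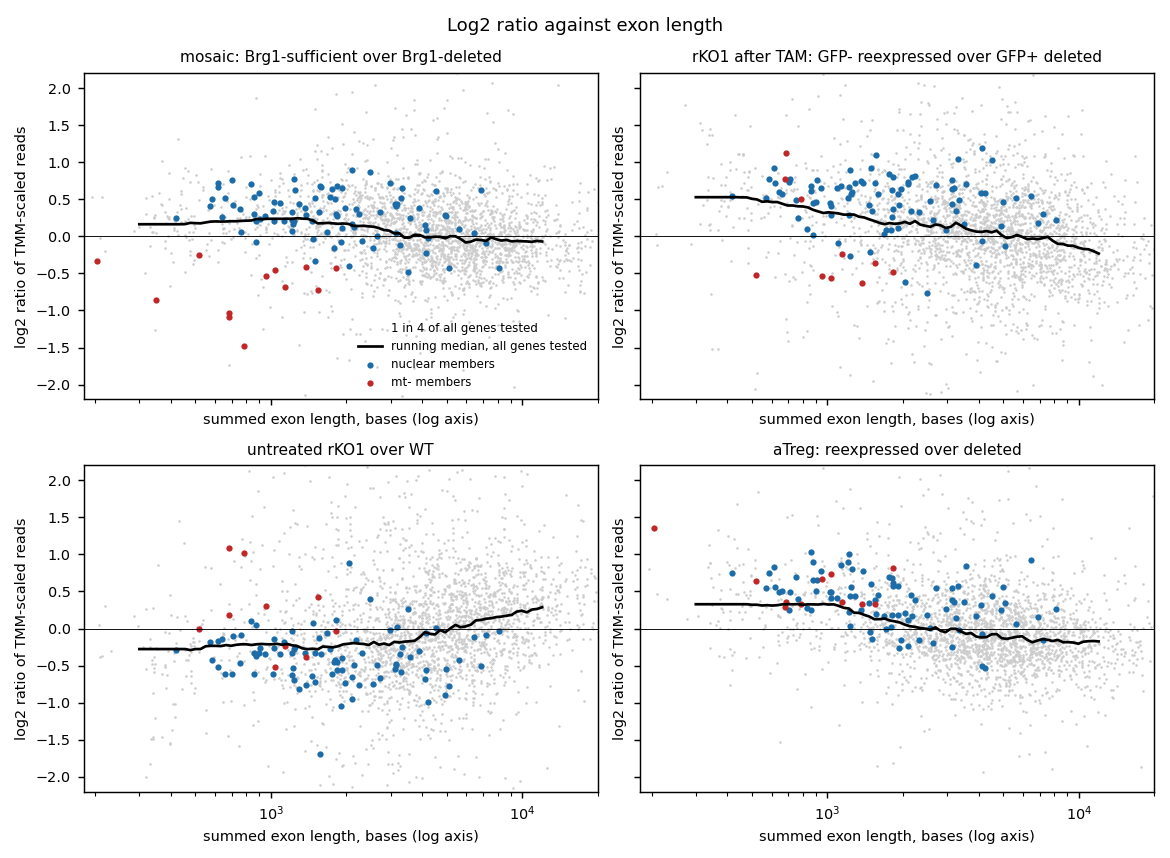
Log2 ratio of TMM-scaled reads (vertical axis) against summed exon length in bases (logarithmic axis) in the 4 main comparisons. Grey points are 1 in 4 of all genes tested, and blue and red points are nuclear and mt- members. The black line is the running median, over 500 genes, of all genes tested. The line slopes down in 3 panels and up for untreated rKO1 over WT, and most nuclear members lie above it in the former and below it in the latter.

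Promoters were available in the RefSeq table (GRCm38.p6) for 78 of the 97 nuclear members, each from 250 bases before to 50 after the start. They were searched on both strands for the letters GCGCATGCG, bound by nuclear respiratory factor 1 (NRF1), CCGGAAG, bound by ETS factors such as GABP, and AAGATGGCG, bound by YY1, all known from promoters of respiratory genes. NRF1 letters were in 10 members (12.8%), against 1.95% of all 27025 genes with a promoter and 4.63% of the 8151 of these that were expressed in a total Treg library. ETS letters were in 21 members (26.9%), against 9.93% and 23.0%, and YY1 letters in 8 (10.3%), against 1.64% and 4.2%. In no member did matches of different motifs overlap. At least 1 of the 3 motifs was in 33 of the 78 members, and in 23 of the 54 with a promoter among those higher in all 3 comparisons that share no library, read by the labels. A share of all genes is not given for this count, and a link between motifs and direction was not tested.

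The promoters of 4 members named above show the range, with matches in capitals, each in the direction of its gene. Ndufa12 (chr10:94198785-94199084, plus strand), the nuclear member with the largest difference between untreated rKO1 and WT apart from Cox6b2, held no match. Uqcrc1 (chr9:108936398-108936697, plus strand) held the NRF1 letters on both strands at bases 281 to 290, after the start. Cox6b1 (chr7:30626065-30626364, minus strand) held the ETS letters in reverse at bases 223 to 229, and Atp5k (chr5:108434350-108434649, minus strand) held both, the NRF1 letters on both strands at bases 201 to 210 and the ETS letters at 263 to 269.
Ndufa12: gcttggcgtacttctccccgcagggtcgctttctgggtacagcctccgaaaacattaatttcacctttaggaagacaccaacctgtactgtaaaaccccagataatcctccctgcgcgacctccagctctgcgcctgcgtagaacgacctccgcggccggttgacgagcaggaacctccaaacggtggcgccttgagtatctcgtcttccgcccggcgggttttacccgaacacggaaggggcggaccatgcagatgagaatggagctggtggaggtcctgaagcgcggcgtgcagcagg
Uqcrc1: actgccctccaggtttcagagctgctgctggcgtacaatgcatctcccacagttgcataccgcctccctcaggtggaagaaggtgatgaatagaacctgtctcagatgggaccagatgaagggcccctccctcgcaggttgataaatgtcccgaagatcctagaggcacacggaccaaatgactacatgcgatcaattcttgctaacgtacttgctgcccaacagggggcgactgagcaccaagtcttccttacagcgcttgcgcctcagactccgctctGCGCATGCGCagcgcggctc
Cox6b1: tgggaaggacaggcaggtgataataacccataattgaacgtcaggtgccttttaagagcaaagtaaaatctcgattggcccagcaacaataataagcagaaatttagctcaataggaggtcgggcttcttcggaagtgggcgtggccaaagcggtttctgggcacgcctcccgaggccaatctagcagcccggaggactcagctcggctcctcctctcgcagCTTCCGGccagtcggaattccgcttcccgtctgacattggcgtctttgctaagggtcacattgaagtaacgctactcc
Atp5k: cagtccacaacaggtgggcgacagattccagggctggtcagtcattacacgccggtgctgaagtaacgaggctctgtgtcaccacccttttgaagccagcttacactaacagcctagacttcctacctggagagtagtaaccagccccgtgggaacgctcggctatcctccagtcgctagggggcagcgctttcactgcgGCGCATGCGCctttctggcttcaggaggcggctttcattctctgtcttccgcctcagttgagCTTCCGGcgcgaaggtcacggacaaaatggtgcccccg

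Other genes of mitochondrial energy supply were read in the same way, from lists given by function. For comparison, 53.4% of all genes were higher in the mosaic pair, 54.7% in the rKO1 pair and 45.0% in aTregs. For untreated rKO1 over WT, 52.8% were lower. The medians of all genes were 0.03 (mosaic), 0.06 (rKO1), -0.05 (untreated rKO1 over WT) and -0.06 (aTreg). Of 77 mitochondrial ribosome genes tested, 71 were higher in Brg1-sufficient mosaic cells (median 0.31), 70 in GFP- rKO1 cells (0.33), and 73 were lower in untreated rKO1 than in WT cells (-0.46). In aTregs 54 of 76 were higher in the library labelled reexpressed (0.16). Among 30 other assembly factors of the complexes the medians were 0.14, 0.27, -0.16 and 0.06, and Coa6, which serves complex IV, was the highest in the mosaic pair and in aTregs at log2 ratios of 0.64 and 0.97. Among 23 genes of electron carriers and nucleotide exchange they were 0.08, 0.13, -0.25 and 0.03. Cyc1, the cytochrome of complex III, was highest in the mosaic pair (0.51), and Slc25a5, an exchanger of ADP and ATP, was lowest for untreated rKO1 over WT (-1.56).

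The 18 genes of the TCA cycle and pyruvate dehydrogenase had medians of -0.02 in the mosaic and 0.23 in the rKO1 pair, -0.52 for untreated rKO1 over WT and -0.17 in aTregs. Idh3a, a subunit of the NAD-linked isocitrate dehydrogenase, was highest in GFP- rKO1 cells (1.02) and in aTregs (0.43), and Idh2, its NADP-linked counterpart, was lowest for untreated rKO1 over WT (-1.64). Of 26 genes that maintain and transcribe mitochondrial DNA, 20 were lower in Brg1-sufficient mosaic cells (median -0.19), where 53.4% of all genes were higher. Tfb2m, a transcription factor of mitochondrial DNA, was the lowest at -0.64. The medians of these genes were -0.09 in the rKO1 pair, -0.12 for untreated rKO1 over WT and 0.12 in aTregs. The 11 regulators of respiratory genes had medians of 0.03, -0.17, -0.08 and -0.10. Ppargc1b, a coactivator of such genes, was the lowest of them in GFP- rKO1 cells (-1.42), and Gabpb1 the highest (0.60).

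Housekeeping machines outside the mitochondrion were read beside these lists, with the same shares and medians of all genes to compare. Of 38 proteasome genes, 31 were higher in Brg1-sufficient and 37 in GFP- cells, 36 were lower in untreated rKO1 than in WT, and 26 were higher in the aTreg library labelled reexpressed, with medians of 0.17, 0.50, -0.60 and 0.11. Cytosolic ribosome genes had medians of 0.09, 0.01, -0.47 and 0.31.

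Pairs of libraries that share their Brg1 state give the size of differences without that contrast. WT and mosaic Brg1-sufficient cells differed by a nuclear median of 0.18 in favour of WT, and by 0.28 for mt- members. GFP+ and untreated rKO1 cells, both deleted, differed by 0.13 for nuclear and by 0.00 for mt- members. Untreated rKO1 and mosaic Brg1-deleted cells differed by 0.02 and -0.53, so that the mt- medians of 2 deleted libraries lay nearly as far apart as those of the mosaic pair. GFP- rKO1 cells were 0.42 above mosaic Brg1-sufficient cells and 0.21 above WT in the nuclear median, with mt- medians of 0.38 and -0.24. With TMM, the nuclear median of the rKO1 pair (0.55) exceeded that of every pair with the same Brg1 state, whereas that of the mosaic pair (0.30) was below the 0.42 between GFP- rKO1 and mosaic Brg1-sufficient cells. With total reads the rKO1 pair was at 0.19 and the mosaic pair at 0.16, below the 0.34 between GFP- rKO1 and mosaic Brg1-sufficient cells, the 0.23 between WT and the latter, and the 0.24 between untreated rKO1 and mosaic Brg1-deleted cells.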

How the data were processed

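RNA-seq was measured in 8 libraries of mouse Treg cells, 1 per condition. Per the paper's methods and the submitters' processing notes, reads of SMART-Seq v4 libraries, whose kit does not keep strand, were aligned to mm10, and the notes name HISAT2 2.0, StringTie 1.3.3b and featureCounts 1.5.0-p3. The deposited values were FPKM per gene, computed by the authors, in a single-library file for each sample. Groups were taken from the sample labels.

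FPKM is reads per kilobase of exon and per 1000000 reads. Whole reads were recovered by multiplying each value by the gene's exon length in GENCODE release M21 and the library total that the steps between low values implied. Of genes with reads, 93.4% in the total Treg files came out whole to within 0.02 read (1544 genes more with another length), and 100% in the aTreg files. Library totals were 16357998 to 24130039 reads on genes, which sets the counting precision. TMM factors were computed within each experiment. Genes entered a comparison when 1 or both libraries reached 5 CPM. Log2 ratios used a prior of 0.125 read, and intervals are exact 95% binomial (Clopper-Pearson) intervals of the reads, covering counting error only. With 1 library per condition no test was run.

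All mt- members were named, and in each main comparison the highest and lowest log2 ratio of each complex and of the assembly factors among members of at least 20 CPM, every member past 2-fold, the tissue-limited isoforms, and the extremes of the companion lists. Members past 1.5-fold in 3 comparisons, Ndufs3, Ndufb2, the most abundant members, and Atp5s were named after their values were seen. The members and gene lists were chosen with earlier results of these data known. Copies were found by sharing of 100-base windows of transcripts and by alignment, and motifs by exact match. Alternatives were total-read scaling, median-of-ratios scaling, FPKM as deposited, other filters and priors, mt- reads left out, removal of the length trend, reduced member lists, and summed reads of gene and chromosome 1 copy. Scripts ran under Python 3.11.15 with pandas 2.3.3, NumPy 2.4.6, matplotlib 3.10.9 and SciPy 1.17.1, and were tested on simulated data.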

Additional observations from a re-analysis of the deposited data

Results flagged for a closer look

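The mosaic, rKO1 and aTreg comparisons each set a library with, or labelled as with, BRG1 over one without, and results that went opposite ways in 2 of them are listed here. With 1 library per condition the difference was not tested in any case. For single genes, both log2 ratios had to be at least 0.5 in size, a limit chosen after the data were seen, with counting intervals that did not include 0.

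The median of the mt- members was -0.61 in the mosaic pair and -0.42 in the rKO1 pair, against 0.36 in aTregs. Every opposition that involves aTregs rests on the aTreg labels, which Smarca4 goes against (71.2 CPM in the library labelled deleted, 59.4 in the one labelled reexpressed), and with that pair turned its values here would change sign and go the same way as the pair they are set against. Among members without a copy, mt-Nd1 stood at -0.53 in both total Treg pairs and at 0.66 in aTregs, mt-Nd2 at -0.56 in the rKO1 pair and 0.74 in aTregs, and mt-Nd6 at -0.53 and 0.65 in the same order. Among members with a copy on chromosome 1, the mosaic and rKO1 pairs went opposite ways: mt-Atp6 was at -1.09 and 0.77, mt-Co2 at -1.03 and 1.12, and mt-Co3 at -1.48 and 0.50.

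Of the nuclear members, Atp5b was at 0.58 in the rKO1 pair and -0.53 in aTregs. Sdhaf1 was at 0.87 in the mosaic pair and -0.77 in the rKO1 pair.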

How the results depend on the processing

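No paired analysis was possible because each condition had 1 library. Values below are median log2 ratios in the order mosaic, rKO1, untreated rKO1 over WT, and aTreg. With total reads in place of TMM the nuclear medians were 0.16, 0.19, -0.074 and 0.34 and the mt- medians -0.74, -0.77, 0.39 and 0.32, and the count of nuclear members higher in all 3 libraries with BRG1 went from 47 to 10, a setting added after the data were seen. For WT over mosaic Brg1-sufficient, untreated rKO1 over mosaic Brg1-deleted, GFP+ over untreated rKO1, and GFP- rKO1 over mosaic Brg1-sufficient and over WT, total reads gave nuclear medians of 0.23, 0.24, 0.043, 0.34 and 0.073 and mt- medians of 0.33, -0.32, -0.083, 0.29 and -0.38, also added later. With the aTreg pair turned, likewise added, nuclear members higher in all 3 comparisons that share no library went from 62 to 8, those at least 1.5-fold higher from 4 to 0, and mt- members lower in all 3 from 0 to 7. With the length trend removed the nuclear medians were 0.14, 0.30, -0.19 and 0.22 and the mt- medians -0.83, -0.61, 0.34 and 0.20. With no filter on low genes the mt- medians were -0.68, -0.24, 0.31 and 0.43. Without assembly factors, tissue-limited isoforms and mt- genes with a copy, the mt- medians were -0.44, -0.53, -0.036 and 0.70 and the nuclear median of untreated rKO1 over WT was -0.43. From FPKM as deposited the mt- medians were -0.48 (rKO1) and 0.32 (aTreg). With reads of gene and chromosome 1 copy summed, also added after the data were seen, they were -0.53 (rKO1), -0.036 (untreated rKO1 over WT) and 0.55 (aTreg). The mt- median of untreated rKO1 over WT (0.09) changed sign under 2 of these settings, and that of GFP+ over untreated rKO1 (0.00) with total reads. The cause was not tested. Of 93 log2 ratios of named members, 73 left their counting interval under total reads and 80 with the length trend removed, and 7 changed sign in each case. None moved with mt- reads left out of the scaling or with a prior of 2 reads.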
